A study of Mus musculus with 4 samples.

Results

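The 9 genes Cps1, Ass1, Asl, Arg1, Nags, Tat, Hpd, Tdo2 and Gls2 encode liver enzymes that break down amino acids and turn the ammonia released into urea. They were chosen by name and located with GENCODE vM21 (GRCm38), and they are 9 of 21938 protein-coding genes. The transcription start site (TSS) was the 5′ end of the gene in that annotation. Every peak was described that touched the gene itself or the 10 kb window on either side of the TSS. These loci cover 344538 bp and held 18 peaks, of which 6 came from ATACseq and 12 from H2A.Z ChIPseq.

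Amino nitrogen leaves the body as urea, which hepatocytes make from ammonia through enzymes of the mitochondrion and the cytosol. These genes are strongly expressed in liver, several of them mainly in the hepatocytes around the portal vein, and glucocorticoids, glucagon and a protein-rich diet are known to raise many of them. ATACseq marks open DNA by where a transposase can cut it, and H2A.Z is a histone variant found in nucleosomes that flank active and poised promoters and enhancers.

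ATACseq and H2A.Z ChIPseq were done on 1 WT liver (Uhrf1 fl/fl, with no Cre) and on 1 Uhrf1hepKO liver (Uhrf1 fl/fl;Alb:Cre), which gives 4 libraries with 1 in each group. Both mice were C57Bl/6 males of 8 to 12 weeks on a normal diet, and the same livers served both assays. Alb:Cre deletes in hepatocytes, and cells of the Uhrf1hepKO liver in which Cre is not active keep the floxed alleles. UHRF1 is needed to maintain DNA methylation.

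The question asked here was which of these genes carried an accessible site or H2A.Z in each liver. After restriction to chromosomes 1 to 19, X and Y, the ATACseq lists held 10582 peaks in WT and 10764 in Uhrf1hepKO, and the H2A.Z lists held 51450 and 47135. For H2A.Z, the number of reads at each summit could be recovered from the fold and the p-value. At the usual background of 3.10 reads in WT and 3.30 in Uhrf1hepKO, no summit under 11 and 12 reads was in the lists, and the median summit had 21 and 23 reads. The depth of the ATACseq libraries is unknown, but their most frequent fold matched 8 reads over a background of 1.56 in WT and 9 reads over 2.0 in Uhrf1hepKO. A locus without a peak therefore held too few reads for a call, which does not show that it was closed or without H2A.Z. Genes that define liver cells were checked against a background of 34.4 and 32.4% of all protein-coding genes with an ATACseq peak in the 10 kb window, and 58.4 and 56.5% with H2A.Z, in WT and Uhrf1hepKO. Of 8 hepatocyte markers, 0 had a WT ATACseq peak in the 10 kb window, 3 had one in Uhrf1hepKO (Alb, Cebpa and Trf), and 1 and 2 had an H2A.Z peak. Of 18 markers of Kupffer, endothelial and bile duct cells, 1 and 0 had an ATACseq peak and 4 and 4 an H2A.Z peak, in WT and Uhrf1hepKO respectively. Since whole livers were measured, fewer cells with a site and less signal per cell cannot be told apart. Because each condition has 1 library, its spread is unknown and no difference between WT and Uhrf1hepKO was tested. Intervals given below are 95% intervals for counting error only.

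The 10 kb window held an ATACseq peak at 3 of 9 genes in WT (Asl, Tat and Tdo2; 33.3%, Wilson interval 12.1 to 64.6%) and at 3 of 9 in Uhrf1hepKO (Nags, Tat and Gls2). Over all protein-coding genes the same rule held for 34.4% in WT and 32.4% in Uhrf1hepKO. It held H2A.Z at Asl, Nags, Tdo2 and Gls2 in both livers, which is 4 of 9 (44.4%, 18.9 to 73.3%), beside 58.4% of all genes in WT and 56.5% in Uhrf1hepKO. The 500 bp upstream of the TSS held an ATACseq peak at 0 of 9 genes in either liver, beside 22.3% of all genes in WT and 20.5% in Uhrf1hepKO. H2A.Z was called there at 1 gene, Gls2, in both livers, beside 37.5% of all genes in WT and 36.2% in Uhrf1hepKO. Counted from the RefSeq start, the 500 bp upstream of Tdo2 held a WT ATACseq peak and an Uhrf1hepKO H2A.Z peak. The ATACseq peaks of Tat in both livers lay outside the 10 kb window when counted from its RefSeq start. With 500 bp on either side of the TSS, which takes in the peaks of Asl and Tdo2 just downstream, H2A.Z was called at 2 genes in WT and 3 in Uhrf1hepKO and ATACseq at 1 in WT. No share of all genes is given for this wider rule, and the shares above do not apply to these counts. Cps1, Ass1, Arg1 and Hpd had no peak in the 10 kb window in any of the 4 lists, as did 36.1% of all protein-coding genes. The share of the 9 genes with a peak in the window was close to the background for ATACseq and lay below it for H2A.Z, with intervals that hold the background in all 4 lists.

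**Figure D1:**
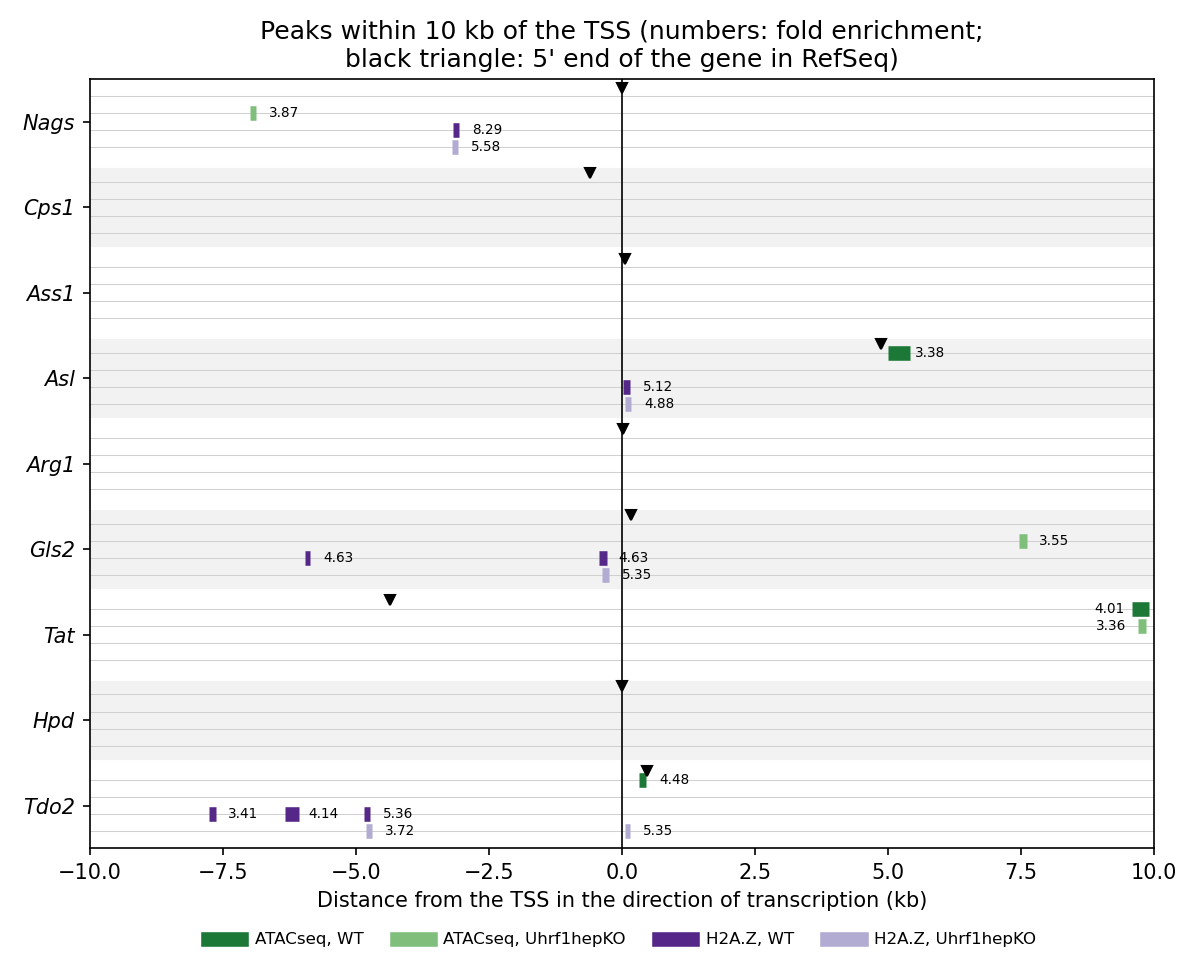
Peaks of the 4 lists within 10 kb of the TSS of each gene, drawn in the direction of transcription (x axis in kb, 0 at the GENCODE TSS, 1 lane per list, the number beside a peak its fold, and the black triangle the 5′ end of the gene in RefSeq). Cps1, Ass1, Arg1 and Hpd are empty, Asl and Gls2 have H2A.Z near the TSS in both livers, and the peaks of Tat lie past its 3′ end.

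Nags encodes N-acetylglutamate synthase, which makes the activator that CPS1 needs. The gene lies on the plus strand at chr11:102145513-102149477 and had 64 CpGs within 500 bp of its TSS. Its nearest sites lay upstream of the gene, in intergenic sequence. In WT, H2A.Z was called at chr11:102142334-102142447 with a fold of 8.29, higher than 88.3% of the peaks in that list, and its summit lay 3118 bp upstream of the TSS with 33 reads (22.7 to 46.3). In Uhrf1hepKO, H2A.Z was called at chr11:102142319-102142436 with a fold of 5.58 and 23 reads (14.6 to 34.5). The peaks shared 103 bp, and their summits lay 6 bp apart. No H2A.Z summit in the 9 loci had more reads than the WT summit at Nags. In Uhrf1hepKO, an ATACseq peak was called at chr11:102138522-102138633, centred 6936 bp upstream of the TSS, with a fold of 3.87. No WT ATACseq peak overlapped it, and the nearest one to the Nags TSS lay 103.2 kb away. The bases under both kinds of peak are shown because they differ in CpG content. The H2A.Z peak had 3 CpGs in 114 bp and the ATACseq peak 11 in 112 bp. Both are on the plus strand of GRCm38, with capitals for the bases that both livers' H2A.Z peaks shared and, in the ATACseq peak, for the CpGs.
Nags H2A.Z, WT: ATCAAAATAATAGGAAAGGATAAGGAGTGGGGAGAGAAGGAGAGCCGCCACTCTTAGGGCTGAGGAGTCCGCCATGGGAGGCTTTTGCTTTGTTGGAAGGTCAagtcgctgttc
Nags ATACseq, Uhrf1hepKO: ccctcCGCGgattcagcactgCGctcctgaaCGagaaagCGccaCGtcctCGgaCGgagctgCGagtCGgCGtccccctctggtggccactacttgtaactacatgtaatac

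Cps1 encodes carbamoyl phosphate synthetase, which fixes ammonia in the mitochondrion. It is the longest of the 9 genes, with 108234 bp on the plus strand at chr1:67123026-67231259, and no list had a peak in it or in its window. RefSeq starts it 600 bp further upstream. Its TSS had 8 CpGs within 500 bp. The nearest H2A.Z was intergenic and 30.1 kb upstream in both livers. There the WT summit had 26 reads (17.0 to 38.1) with a fold of 6.58, and the Uhrf1hepKO summit had 36 reads (25.2 to 49.8) with a fold of 8.60. The summits lay 1 bp apart, and no coding TSS was nearer than that of Cps1. The nearest ATACseq peak to the Cps1 TSS was 260.0 kb away in WT and 260.1 kb away in Uhrf1hepKO, in an intron of Acadl.

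Ass1 encodes argininosuccinate synthase, which joins citrulline and aspartate. The gene spans chr2:31470207-31520672 on the plus strand. No peak of any list lay in its locus, although its TSS had 56 CpGs within 500 bp. Among the 2307 coding genes with a CpG count within 5 of that of Ass1, 51.5% had a WT ATACseq peak and 79.5% a WT H2A.Z peak within 10 kb, and 16.8% had no peak in any list. The nearest peaks of all 4 lists lay between 101.7 and 102.4 kb downstream of the Ass1 TSS, at the TSS of Fubp3.

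Asl encodes argininosuccinate lyase, which releases arginine and fumarate. It lies on the minus strand at chr5:130011258-130029247. The TSS of Crcp lay 43 bp upstream of the Asl TSS, so sites there cannot be assigned to one of these genes. H2A.Z was called at this pair of starts in both livers. The WT peak, chr5:130029091-130029221, had a fold of 5.12 and 20 reads (12.2 to 30.9) at a summit 98 bp into Asl. The Uhrf1hepKO peak, chr5:130029071-130029191, had a fold of 4.88 and also 20 reads, at a summit 107 bp into the gene. The only ATACseq peak of Asl came from WT, at chr5:130023830-130024246, with a width of 417 bp and a fold of 3.38 that was above only 3.72% of the peaks in its list. It was 5001 to 5417 bp downstream of the GENCODE TSS, in exonic sequence, and held 21 CpGs. RefSeq starts the gene 4866 bp downstream of the GENCODE TSS, and 5 GENCODE transcripts start between 4866 and 4947 bp downstream of it, the last of them 54 bp before the edge of the peak. The WT ATACseq peak of Asl thus lay beside this later group of starts and its H2A.Z at the earlier one. In Uhrf1hepKO, no ATACseq peak was called within 50.1 kb of the Asl TSS.

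Arg1 encodes arginase, which splits arginine into urea and ornithine and closes the cycle. Arg1 is at chr10:24915221-24927484 on the minus strand and had 14 CpGs within 500 bp of its TSS. No list had a peak in its locus. H2A.Z was called 15.2 kb upstream in WT, with 20 reads (12.2 to 30.9) and a fold of 5.12, and 15.3 kb upstream in Uhrf1hepKO, with 27 reads (17.8 to 39.3) and a fold of 6.51. The nearest coding TSS to both summits was that of Arg1. The nearest ATACseq peak in WT lay 24.2 kb upstream, with a fold of 3.83, and no Uhrf1hepKO peak overlapped it. In Uhrf1hepKO, the nearest ATACseq peak was 57.5 kb downstream, in an exon of Med23.

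Gls2 encodes the liver glutaminase, which frees ammonia from glutamine. Gls2 is at chr10:128194457-128210004 on the plus strand and had more CpGs near its TSS than the other 8 genes, 90 within 500 bp. It was also the only one of the 9 with a peak in the 500 bp upstream of the GENCODE TSS. H2A.Z was called there at chr10:128194022-128194168 in WT, with a fold of 4.63 and 18 reads (10.7 to 28.4) at a summit 332 bp upstream. In Uhrf1hepKO it was called at chr10:128194088-128194212, with a fold of 5.35 and 22 reads (13.8 to 33.3) at a summit 319 bp upstream. WT had a further H2A.Z peak 5912 bp upstream, with a fold of 4.63 and 18 reads, and no Uhrf1hepKO peak overlapped it. Uhrf1hepKO had the only ATACseq peak, at chr10:128201914-128202064, in an intron 7532 bp downstream of the TSS, with a fold of 3.55. In WT the nearest ATACseq peak lay 59.5 kb from the TSS, in an exon of Apon.

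Tat encodes tyrosine aminotransferase, the enzyme that starts tyrosine breakdown and a classic target of glucocorticoids in liver. It lies on the plus strand at chr8:109990437-109999803 and had 13 CpGs within 500 bp of its TSS, and RefSeq extends it 4359 bp further upstream. The only ATACseq site called in its locus lay past the 3′ end of the gene, in intergenic sequence. The WT ATACseq peak, chr8:110000023-110000345, had a width of 323 bp and a fold of 4.01, and the Uhrf1hepKO peak, chr8:110000139-110000275, had a width of 137 bp and a fold of 3.36. From the GENCODE TSS the WT peak lay 9586 to 9908 bp downstream, at the edge of the 10 kb window. From the RefSeq start it lay 13945 to 14267 bp downstream and the Uhrf1hepKO peak 14061 to 14197 bp, both outside that window. The Uhrf1hepKO peak lay whole within the WT peak, and with the GENCODE TSS this was the only ATACseq site of the 9 loci called in both livers. It is shown for that reason, on the plus strand of GRCm38 with its 3 CpGs in capitals.
Tat ATACseq, Uhrf1hepKO: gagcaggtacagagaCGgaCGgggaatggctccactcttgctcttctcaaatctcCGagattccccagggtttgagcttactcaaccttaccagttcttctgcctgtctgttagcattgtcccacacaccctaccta
The Tat locus held no H2A.Z. The nearest such peak was 14.2 kb downstream in both livers, with 20 reads (12.2 to 30.9) and a fold of 5.12 in WT and 29 reads (19.4 to 41.6) and a fold of 6.97 in Uhrf1hepKO.

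Hpd encodes 4-hydroxyphenylpyruvate dioxygenase, which acts after TAT. It lies on the minus strand at chr5:123171807-123182727, with 20 CpGs within 500 bp of its TSS, and no list had a peak in its locus. The nearest ATACseq peak in Uhrf1hepKO was 14.1 kb upstream, in an intron of Psmd9, with a fold of 3.87. In WT it was 41.4 kb downstream. The nearest H2A.Z was 41.1 kb downstream in WT and 106.1 kb downstream in Uhrf1hepKO, and no peak of the other liver overlapped any of these 4.

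Tdo2 encodes tryptophan 2,3-dioxygenase, which opens the ring of tryptophan and, like TAT, is known to respond to glucocorticoids. It lies on the minus strand at chr3:81957090-81976202 and had 4 CpGs within 500 bp of its TSS, the fewest of the 9 genes. No other of them had an ATACseq peak in the 1 kb around the TSS. That WT peak, chr3:81975741-81975875, had a width of 135 bp and a fold of 4.48, higher than 56.0% of the peaks in its list. RefSeq starts Tdo2 474 bp downstream of the GENCODE TSS, and the peak covered 147 to 13 bp upstream of the RefSeq start. No Uhrf1hepKO ATACseq peak overlapped it, and the nearest one to the TSS was 381.6 kb away. In Uhrf1hepKO, H2A.Z was called next to it at chr3:81976047-81976152, with a fold of 5.35 and 22 reads (13.8 to 33.3) at a summit 116 bp downstream of the GENCODE TSS. No WT H2A.Z peak overlapped that site, and a gap of 171 bp separated it from the WT ATACseq peak.

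The other H2A.Z of the Tdo2 locus lay upstream, nearer to the TSS of Asic5, which encodes an ion channel of the acid-sensing family and starts 6088 bp upstream of Tdo2. A WT peak, chr3:81980943-81981042, had a fold of 5.36 and 21 reads (13.0 to 32.1) at a summit 4787 bp upstream of the Tdo2 TSS. The Uhrf1hepKO peak, chr3:81980891-81981010, had a fold of 3.72 and 15 reads (8.40 to 24.7). They shared 68 bp, and their summits lay 38 bp apart. These bases are shown as the only H2A.Z of the locus called in both livers, on the plus strand of GRCm38 with the shared bases in capitals.
Tdo2 H2A.Z, WT: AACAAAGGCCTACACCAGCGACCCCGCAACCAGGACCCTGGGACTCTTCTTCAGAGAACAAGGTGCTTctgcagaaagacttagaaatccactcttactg
WT alone had further peaks 6133 bp and 7696 bp upstream of the Tdo2 TSS, with folds of 4.14 and 3.41 and 16 and 13 reads. The summit of the former lay 45 bp from the Asic5 TSS.

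WT and Uhrf1hepKO were set side by side by overlap. Of the 3 ATACseq peaks in these loci, 1 in each liver was overlapped by a peak of the other liver (33.3%), beside 61.3% of all WT and 60.3% of all Uhrf1hepKO ATACseq peaks. For H2A.Z, 4 of 7 WT peaks (57.1%) and 4 of 5 Uhrf1hepKO peaks (80%) were overlapped, beside 70.0% of all WT and 75.6% of all Uhrf1hepKO peaks. Most of the ATACseq peaks had low folds. Of these, 2 of 3 in WT and 3 of 3 in Uhrf1hepKO were below the median fold of their list, which was 4.31 and 4.05. Of the H2A.Z peaks, 4 of 7 in WT and 2 of 5 in Uhrf1hepKO were below the median of 5.12 and 5.35.

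Reads at the summit could be compared at 7 H2A.Z sites called in both livers, 4 in the loci (Asl, Nags, Tdo2 and Gls2) and 3 outside them (Cps1, Arg1 and Tat). The Uhrf1hepKO summit had more reads at 4 sites, the WT summit at 2, and they were equal at 1. The sites with more reads in Uhrf1hepKO were those of Cps1, Arg1, Tat and Gls2, and the sites with more in WT were those of Nags and Tdo2. The Poisson intervals of both livers overlapped at 7 of 7 sites. Sites called in 1 liver alone were left out, and the intervals are wide at these read numbers. The overlap therefore does not show that the livers had equal H2A.Z. The libraries were not scaled to each other, and the usual background was 3.10 reads in WT and 3.30 in Uhrf1hepKO. Summits lay 1 to 38 bp apart.

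**Figure D2:**
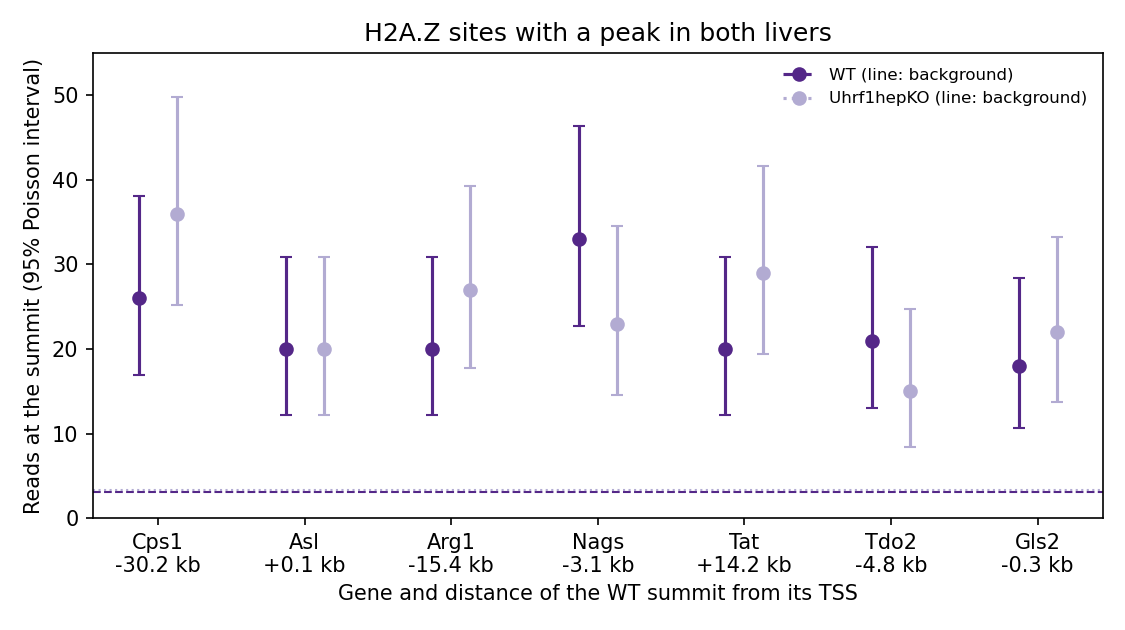
Reads at the H2A.Z summit (y axis) at the 7 sites called in both livers, with exact Poisson 95% intervals, for WT and Uhrf1hepKO, and the usual background of each library as dashed and dotted lines. The intervals overlap at every site, and all summits lie above the background of 3.10 and 3.30 reads.

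The distance to the nearest peak differed widely among these genes. H2A.Z lay within 1 kb of the TSS of Asl and Gls2 in both livers and of Tdo2 in Uhrf1hepKO alone. For Cps1, Arg1 and Tat it lay between 14.2 and 30.1 kb away, at sites that both livers shared. For Ass1 and for Hpd in Uhrf1hepKO it lay over 100 kb away. The sites beyond 10 kb were described after the loci had been found empty.

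**Figure D3:**
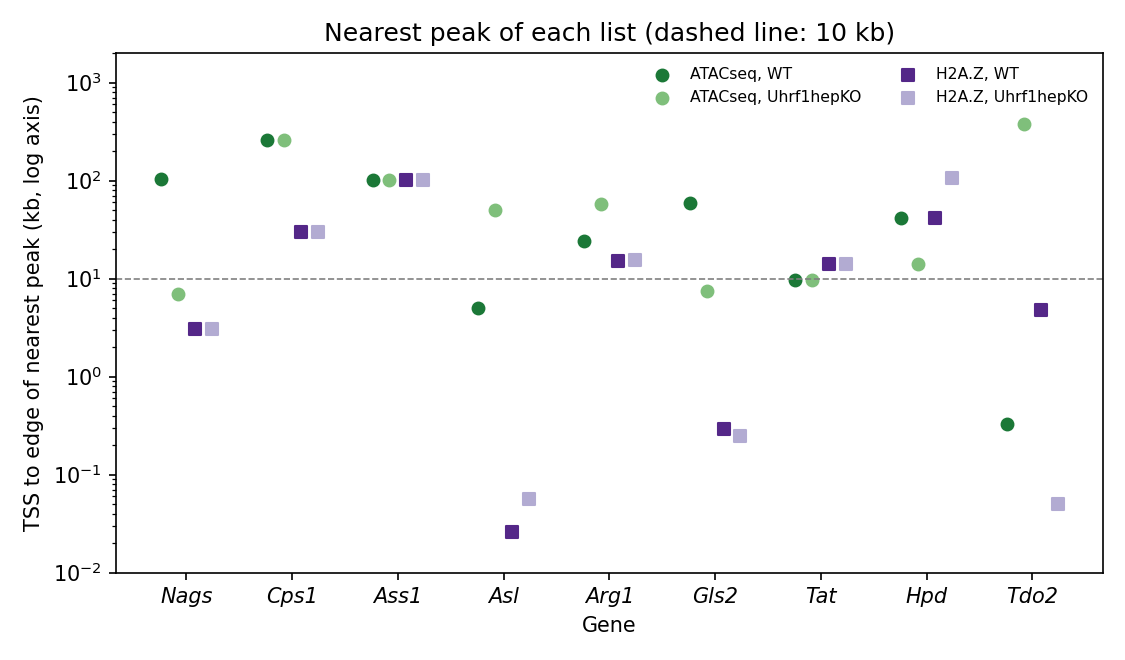
Distance in kb on a log axis from the TSS of each gene to the nearest peak edge in each of the 4 lists, with a dashed line at 10 kb. Ass1 lies at about 102 kb in all 4 lists, and Cps1 at 30.1 kb for H2A.Z and 260 kb for ATACseq in both livers.

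The CpG content of the TSS was uneven among these genes. The median was 20 CpGs within 500 bp, beside 41 over all protein-coding genes. In these lists, genes with many CpGs had peaks more often. Among the 5184 coding genes within 5 CpGs of Cps1, 10.8% had a WT ATACseq and 26.7% a WT H2A.Z peak within 10 kb, and 66.0% had no peak in any list. Among the 3599 genes like Arg1, 52.8% had no peak in any list, and among the 2468 like Hpd, 46.8%. Tdo2 had peaks of 3 lists, where 72.7% of the 4454 genes with similar CpG counts had none in any. Its WT H2A.Z peaks all lay nearer to the TSS of Asic5 than to that of Tdo2. Nags and Gls2 had no WT ATACseq peak in the 10 kb window, where 55.4 and 55.8% of the genes with similar CpG counts had one, and both had an Uhrf1hepKO peak there, as did 51.5 and 51.2% of those genes. Genes with similar CpG counts were counted after the values had been seen.

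RefSeq promoter windows of GRCm38, from 250 bp before to 50 bp after the start, could be matched for 5 of 9 genes (Ass1, Nags, Tat, Hpd and Tdo2). Cps1, Asl, Arg1 and Gls2 were not matched. The letters of 8 motifs were searched on both strands of these windows. TATAAA was found in the Tdo2 window and in 12.6% of 21263 windows. The glucocorticoid receptor letters ACANNNTGT were also found there, and in 5.97% of all windows, and were not in the window of Tat. RefSeq starts Tat 4359 bp upstream and Tdo2 474 bp downstream of the GENCODE TSS. The windows of Tat and Tdo2 thus did not cover the TSS used for the peaks. The GC box GGGCGG was found in the windows of Ass1, Nags and Hpd and in 46.2% of all. Of the ATACseq peaks, the WT peak of Asl held GGGCGG, as did 46.3% of windows of its length, and the Uhrf1hepKO peak of Gls2 held the CEBP letters TTGCNNAA, as did 8.62%. The WT ATACseq peak of Tdo2 held neither TATAAA nor ACANNNTGT. The remaining motifs searched, HNF4 CAAAGTCCA, FOXA TGTTTAC, HNF1 GTTAATNAT and CRE TGACGTCA, had no match in these windows or peaks. A match describes letters and is not a binding site.

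The other genes of these pathways were described in the same way. A list of 62 further genes of amino acid breakdown was used, and 38 of 62 (61.3%, 48.8 to 72.4%) had a WT ATACseq peak within 10 kb and 42 of 62 (67.7%, 55.4 to 78.0%) an Uhrf1hepKO one. H2A.Z was called at 47 (75.8%, 63.8 to 84.8%) in WT and at 42 (67.7%, 55.4 to 78.0%) in Uhrf1hepKO. Over all protein-coding genes the shares were 34.4 and 32.4% for ATACseq and 58.4 and 56.5% for H2A.Z. The intervals of the 62 and of the 9 genes overlapped in all 4 lists, and the difference between them was not tested. The median of the 62 genes was 40 CpGs. Of the 62, 5 had no peak in any list (Afmid, Gldc, Otc, Sds and Sdsl), beside 36.1% of all protein-coding genes.

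**Figure D4:**
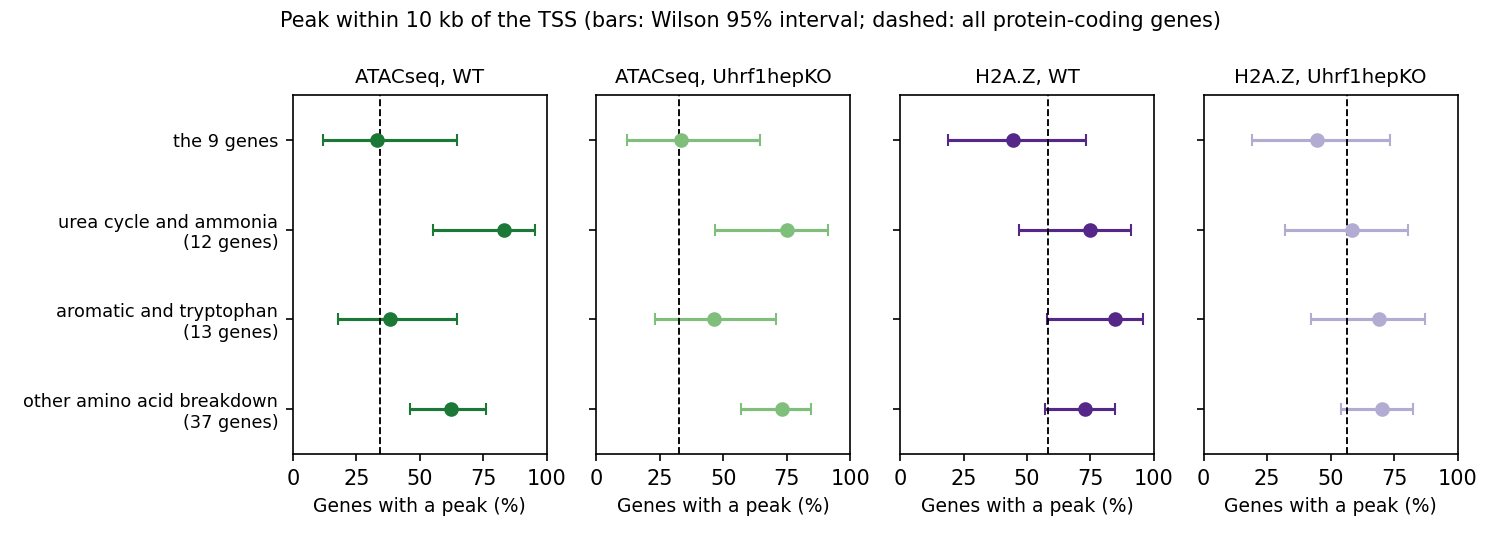
Share of genes in percent (x axis) with a peak in the 10 kb window, in 1 panel per peak list. Rows are the 9 genes and, each by itself, the wider lists of 12, 13 and 37 genes. Bars are Wilson 95% intervals, and the dashed line is the share of all protein-coding genes. The 9 genes sit at 33.3% for ATACseq and 44.4% for H2A.Z in both livers, and the wider lists between 38.5 and 84.6%.

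Of 12 further genes of the urea cycle and of ammonia handling, 10 had an ATACseq peak in WT and 9 in Uhrf1hepKO (83.3 and 75.0%, beside 34.4 and 32.4% of all genes), and 9 and 7 had H2A.Z (75.0 and 58.3%, beside 58.4 and 56.5%). Otc, which makes citrulline in the cycle, had 2 CpGs near its TSS and no peak in any list. The carrier genes differed. Slc25a13, the aspartate and glutamate carrier, had H2A.Z 198 bp upstream in WT with a fold of 4.39 and none in Uhrf1hepKO, and an ATACseq peak 2677 bp upstream in WT and, as the higher of 2, 194 bp upstream in Uhrf1hepKO. Slc25a15, the ornithine carrier, had 3 H2A.Z peaks in each liver, with the highest fold of 6.09 in WT and 5.35 in Uhrf1hepKO, and an ATACseq peak in Uhrf1hepKO alone. Among the larger WT ATACseq folds were those of Glul, glutamine synthetase (5.86, with no peak in Uhrf1hepKO), and Glud1, glutamate dehydrogenase (5.32 in WT and 3.68 in Uhrf1hepKO). The peak of Glud1 lay 24 bp from the TSS of Shld2, and Teddm2 starts within 1 kb of the Glul TSS. The largest WT H2A.Z folds were those of the transaminases Got1 (39 reads in WT and 30 in Uhrf1hepKO), Got2 (28 and 23) and Gpt2 (24 and 23, with the same fold as Slc25a15).

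Of 13 further genes for aromatic amino acids and tryptophan, 5 and 6 had an ATACseq peak in WT and Uhrf1hepKO (38.5 and 46.2%, beside 34.4 and 32.4% of all genes) and 11 and 9 had H2A.Z (84.6 and 69.2%, beside 58.4 and 56.5%). The largest WT ATACseq folds were at Kmo (5.97, at a peak 41 bp from the TSS of Fh1), Qdpr (5.30, 4 bp from its own TSS) and Acmsd (4.08, with no peak in Uhrf1hepKO). By WT fold, the largest H2A.Z peaks were at Gstz1 (39 reads in WT and 29 in Uhrf1hepKO, with Pomt2 starting within 1 kb of its TSS), Kmo (32 and 42, near Fh1) and Ddc (31 and 42). Of 37 further genes for other amino acids, 23 and 27 had an ATACseq peak (62.2 and 73.0%, beside 34.4 and 32.4% of all genes) and 27 and 26 had H2A.Z (73.0 and 70.3%, beside 58.4 and 56.5%). The 3 genes with the highest WT fold in each assay encode enzymes of branched-chain amino acid breakdown, of which this list holds many. Their order did not hold in Uhrf1hepKO ATACseq, where other genes of the list had higher folds. In Uhrf1hepKO H2A.Z it did not hold either, as Hibch (fold 13.0) and other genes of the list stood above Mccc1 (11.4). ATACseq folds in WT and Uhrf1hepKO were 7.99 and 5.55 at Mccc1, 7.52 and 4.87 at Hibadh, and 6.39 and 4.49 at Mccc2, and H2A.Z summits had 70 and 67 reads at Ivd, 51 and 48 at Mccc1, and 50 and 55 at Hibch.

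Patterns within 1 kb of the TSS were compared across the 4 lists. Asl and Gls2, with H2A.Z in both livers and no ATACseq peak, shared their pattern with 9 of the 62 further genes, among which Hal (fold 5.12) was closest to Asl and Fah (fold 4.63) was among 2 genes tied as closest to Gls2. Cps1, Ass1, Arg1, Nags, Tat and Hpd, with no peak within 1 kb, shared theirs with 13 of 62, among which Kmo (8.04) was closest to Nags in the highest WT H2A.Z fold of the 10 kb window. The pattern of Tdo2, ATACseq in WT and H2A.Z in Uhrf1hepKO, was found at 0 of 62. It rests on 1 library each, and neither peak was overlapped in the other liver. No share over all protein-coding genes is given for these patterns, so how common each is remains unknown.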

How the data were processed

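ATACseq and H2A.Z ChIPseq peak lists of 1 WT and 1 Uhrf1hepKO liver were used. The authors aligned reads to GRCm38.p4 with BWA-MEM, used PICARD (duplicates removed for ChIPseq) and ran MACS2 on each library by itself. The submitters' processing notes also name FastQC 0.11.5 and Trimmomatic. ATACseq peaks were called in broad mode. The mode for H2A.Z, the MACS2 version, a control library and a shift of ATACseq reads are not given in the sources used here. Each deposited peak has a score for display, a fold enrichment (the ratio of pileup to local background) and −log10 p- and q-values, for ATACseq averaged over the region and for H2A.Z taken at the summit. H2A.Z peaks also have a deposited summit position. No value is scaled between libraries.

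Only chromosomes 1 to 19, X and Y were kept, and positions are 1-based. A promoter was the 500 bp upstream of the TSS, and overlaps needed 1 bp. Summit reads were the whole number that gives both the fold, (reads + 1)/(background + 1), and the Poisson p-value (tolerance 0.001 in −log10), and were recovered for 100% of H2A.Z peaks. Distances of ATACseq peaks are to their centre, and those of H2A.Z peaks to their summit. The distance to a nearest peak is to its edge. Sequence came from the RefSeq FASTA of GRCm38, and CpGs were counted within 500 bp of the TSS. Shares have Wilson and reads exact Poisson 95% intervals. All 9 genes are named. From the wider lists, the 3 genes with the highest WT fold per assay are named, with Otc, Slc25a13 and Slc25a15, any gene with a TSS nearer to a peak, and the gene closest in H2A.Z fold among those of like pattern. One gene that this rule names is not reported here. The members and lists were chosen with earlier results of these data known. Alternatives changed the window, promoter, TSS, threshold and overlap. Versions were Python 3.11.15, pysam 0.24.0, matplotlib 3.10.9, scipy 1.17.1, pandas 2.3.3 and numpy 2.4.6, and scripts were tested on simulated data.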

Additional observations from a re-analysis of the deposited data

How the results depend on the processing

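Of 111 values recomputed under 9 alternatives, 81 stayed close to the reported value (counts within 1.5 times of it, shares within its 95% interval) and 30 did not. This rule is loose for small numbers. The overlapped share of WT H2A.Z counted as close at 33.3% without peaks below the median fold, beside 57.1% reported. Leaving out the rest of the gene could change no peak count, since 0 peaks lay outside the 10 kb window. The 81 values thus do not measure stability. Within 5 kb of the TSS, ATACseq peaks remained at 1 gene in WT and 0 in Uhrf1hepKO, the loci held 1 Uhrf1hepKO ATACseq and 4 WT H2A.Z peaks, and the overlapped share was 0% for WT ATACseq, 0% for Uhrf1hepKO ATACseq and 100% for WT H2A.Z. When peaks below the median fold were dropped, 1 gene in WT and 0 in Uhrf1hepKO had an ATACseq peak, 0 genes had a WT H2A.Z peak at the promoter, and the loci held 1 and 0 ATACseq and 3 and 3 H2A.Z peaks. The overlapped share was then 0% for WT ATACseq and 33.3% for Uhrf1hepKO H2A.Z, it could not be given for Uhrf1hepKO ATACseq with 0 peaks, and the 62 further genes had peaks at 37.1% (WT ATACseq), 43.5% (Uhrf1hepKO ATACseq) and 56.5% (WT H2A.Z). With a −log10 q of at least 2, 1 gene and 1 peak were left for Uhrf1hepKO ATACseq, the overlapped share was 0% for WT ATACseq and 0% for Uhrf1hepKO ATACseq, and 48.4% of the 62 genes had a WT ATACseq peak. With the TSS of any transcript, the loci held 10 H2A.Z peaks in WT and 10 in Uhrf1hepKO, of which only the Uhrf1hepKO count went beyond 1.5 times the reported value. A promoter of 500 bp on either side held a peak at 1 gene for WT ATACseq, 2 for WT H2A.Z and 3 for Uhrf1hepKO H2A.Z. No share over all protein-coding genes is given for that rule. An overlap of at least 50% of both peaks left 0% for WT ATACseq and 0% for Uhrf1hepKO ATACseq. Lower values under stricter thresholds follow from fewer peaks. No paired analysis was possible because each group has 1 library and the result comes from no test. Depth limits the H2A.Z lists at 11 and 12 reads at a summit, and ATACseq depth is unknown.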
